A study of Homo sapiens with 4 samples.

Results

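The hypoxia and glycolysis genes are 36 human genes that were chosen by name: 17 encode the enzymes that turn glucose into lactate, and 19 encode the hypoxia-inducible factors (HIFs), their oxygen sensors, nutrient transporters, regulators of glycolytic flux and other targets of the HIFs. All 36 were found by gene identifier among the 58676 genes of a count table, and all 36 had enough reads to be tested, as did 17524 genes in all. The table holds RNA sequencing counts from U2OS cells, an established human osteosarcoma line, kept in DMEM with serum. In the control group (2 libraries) the cells received a control single-domain antibody (sdAb), and in the other group (2 libraries) they received an sdAb against MN1, a transcriptional coregulator. An sdAb is a small antibody fragment made of a single variable domain. The sources used here give no dose, exposure time or oxygen level and do not say how the antibody was delivered. They also do not say that the 2 libraries of each group are separate cultures, so the p-values may rest on technical spread.

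HIFs are pairs of an oxygen-regulated alpha subunit and a constant beta subunit. When oxygen is present, prolyl hydroxylases mark the alpha subunit for destruction, so HIF activity is set mostly at the protein level. When oxygen is scarce, HIF binds short hypoxia response elements and raises genes of glucose uptake, glycolysis, pH control and vessel growth. Many tumour cells, osteosarcoma lines included, run glycolysis at a high rate even with oxygen present.

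Levels are CPM, read counts relative to library size after scaling of the library sizes by the trimmed mean of M values, and changes are log2 fold changes of anti-MN1 sdAb over control sdAb with their standard errors. A gene is called higher or lower where the 2-sided quasi-likelihood test of edgeR, adjusted by Benjamini-Hochberg over all 17524 tested genes, gave a value of at most 0.05. The libraries held between 15740268 and 16816893 counts, so 3 counts, the limit that a count of 0 allows, correspond to 0.178 to 0.191 CPM for counting error only. Among 10 markers of the osteoblast lineage and mesenchyme, SP7 and IBSP had no count in any library and COL1A2 and BGLAP were near 0, while VIM stood between 336 and 356 CPM. The summed level of these 10 markers was 1152 and 1131 CPM in control libraries and 637 and 644 CPM in anti-MN1 libraries, with COL1A1, SPARC and RUNX2 called lower. Most of that fall came from COL1A1 (mean of 493 CPM in control and 162 CPM in anti-MN1 libraries) and SPARC (257 and 114 CPM). ALPL (1.68 and 2.73 CPM) and SPP1 (3.86 and 4.27 CPM) went the other way, and neither they nor VIM were called. The summed levels of epithelial (4.85 to 8.05 CPM), endothelial (6.2 to 9.0 CPM) and blood markers (1.10 to 1.30 CPM) were low in all 4 libraries, with CD3E and HBB at 0.

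The genes did not move as a block. In bulk RNA, fewer cells that express a gene and less of its RNA per cell cannot be told apart. With anti-MN1 sdAb 14 of the 36 members were called higher, 6 lower and 16 were not called. Over all tested genes 45.3% were called, 23.7% as higher and 21.6% as lower. The median log2 fold change was 0.08 over the members and -0.0038 over all tested genes. In 27 of the 36 members the control libraries did not overlap the anti-MN1 libraries, as in 70.7% of all tested genes. The called members with a log2 change of at least 0.32 in either direction split evenly, with 5 higher (HK2, PFKP, EPAS1, SLC16A3 and ADM) and 5 lower (ALDOC, ENO2, SLC2A3, BNIP3L and NDRG1), where 29.9% of all tested genes were called with a change of that size, 13.5% higher and 16.3% lower. Library sizes scaled by upper quartiles instead, or by total counts alone, gave 13 members higher and 11 lower.

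Counting calls of any size, glycolytic enzymes and the other members differed in their balance. Of the 17 enzymes 9 were called higher and 2 lower, with a median log2 fold change of 0.19 and a range of -1.17 to 0.73. Of the 19 other members 5 were called higher and 4 lower, with a median of -0.02 and a range of -0.77 to 0.75. Without HIF1A and EPAS1, which are regulators and not targets, 3 of the remaining 17 were higher and 4 lower. The difference between the lists was not tested, since the members were chosen with earlier results known.

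Abundance moved with this balance. Among the 2420 tested genes that averaged 100 CPM or more, 69.9% were called: 50.7% higher and 19.1% lower, with a median log2 fold change of 0.10. The 12 enzymes at that level gave 8 higher and 0 lower with a median of 0.18, and the 4 that were not called there are PFKL, TPI1, GAPDH and PGAM1. The 6 other members at that level gave 3 higher and 2 lower. The part of abundance in the enzymes' balance was not tested.

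**Figure D1:**
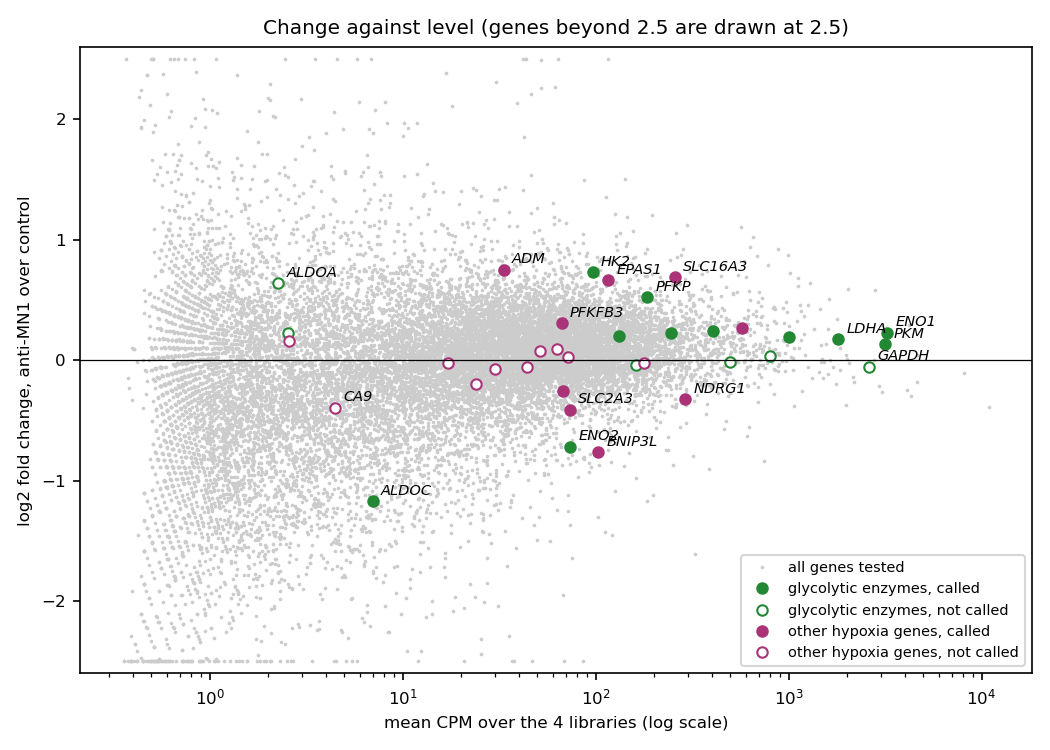
Log2 fold change (anti-MN1 over control, vertical axis) against mean CPM over the 4 libraries (horizontal axis, log scale) for all 17524 tested genes in grey, the 17 glycolytic enzymes in green and the 19 other members in purple; filled circles were called. ENO1, PKM, LDHA and PGK1 at the right lie above 0 and GAPDH just below it, and ALDOC and ENO2 lie lowest among the enzymes.

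At the head of the pathway, both hexokinases, which trap glucose in the cell by phosphorylating it, were higher. HK2, the inducible hexokinase of muscle, fat and many tumours (chr2:74833981-74893359 on GRCh38, plus strand), stood at 75.7 and 69.9 CPM in control libraries and at 123 and 118 CPM in anti-MN1 libraries. Both anti-MN1 libraries lay above both control libraries, and the difference was far larger than the spread within either group. The log2 fold change of HK2 was 0.73 ± 0.05 (1.66-fold, edgeR quasi-likelihood test with Benjamini-Hochberg adjustment, adjusted p = 3.71e-29). HK1, the housekeeping hexokinase, went from 234 and 220 CPM to 267 and 264 CPM, a smaller rise of 0.23 ± 0.04 on the log2 scale that was also called. On the scale of CPM per kilobase of exon, HK2 made up 25.1% and 24.8% of the sum of HK1 and HK2 in control libraries and 32.3% and 31.8% in anti-MN1 libraries, so HK1 remained the more abundant of the pair.

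HIF binds DNA at cores spelled ACGTG or GCGTG. The 2 windows of 250 bases upstream of the annotated HK2 starts (RefSeq, GRCh38.p14, plus strand) are shown because HK2 rose more than any other enzyme and both windows hold both cores. They lie at chr2:74833877-74834126 and chr2:74834920-74835169. Capitals mark ACGTG and GCGTG read on either strand, and in the second window CACGTG reads as ACGTG on both strands.
HK2 upstream start: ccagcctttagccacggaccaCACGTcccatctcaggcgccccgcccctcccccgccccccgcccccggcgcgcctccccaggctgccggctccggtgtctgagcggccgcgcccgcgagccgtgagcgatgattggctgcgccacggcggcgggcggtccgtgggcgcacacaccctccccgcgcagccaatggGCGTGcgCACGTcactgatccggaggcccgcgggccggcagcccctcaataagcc
HK2 downstream start: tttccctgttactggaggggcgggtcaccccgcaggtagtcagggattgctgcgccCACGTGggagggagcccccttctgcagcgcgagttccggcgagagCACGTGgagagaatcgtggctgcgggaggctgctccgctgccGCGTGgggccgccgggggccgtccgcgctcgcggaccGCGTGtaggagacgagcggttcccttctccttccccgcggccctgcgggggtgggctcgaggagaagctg
A match is a description of the letters and not a binding site or a cause.

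GPI, which turns glucose phosphate into fructose phosphate, was called higher, with control libraries at 382 and 362 CPM and anti-MN1 libraries at 442 and 440 CPM. The next step, the committed phosphorylation by phosphofructokinase, has 3 genes, and they did not move alike. PFKP, the platelet type (chr10:3066333-3137712, plus strand), stood at 154 and 150 CPM in control libraries and at 221 and 216 CPM in anti-MN1 libraries. The groups were well apart, and the log2 fold change of PFKP was 0.53 ± 0.04 (1.44-fold, edgeR with Benjamini-Hochberg adjustment, adjusted p = 5.95e-26). PFKM, the muscle type, rose by 0.20 ± 0.05 on the log2 scale. PFKL, the liver type, stood at 166 and 162 CPM against 159 and 159 CPM and was not called. Per kilobase of exon, PFKP was the most abundant of the 3 in every library, and its share rose from 47.3% and 47.1% to 55.2% and 54.6%. The share of PFKL was 27.6% in both control libraries and 21.5% and 21.8% with anti-MN1 sdAb.

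**Figure D2:**
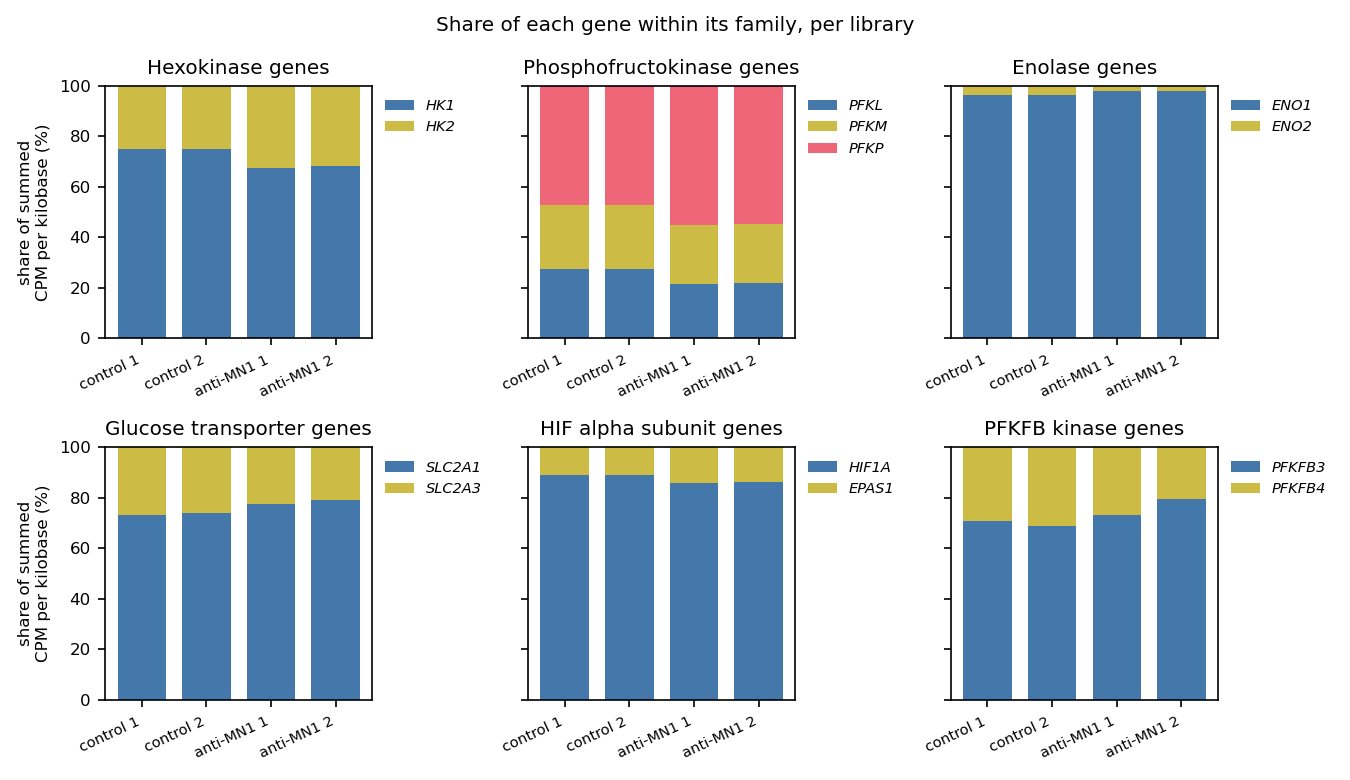
Share of each gene in the summed CPM per kilobase of exon of its family (vertical axis, percent), for each of the 4 libraries (horizontal axis) and 6 families. HK2, PFKP and EPAS1 took a larger share in both anti-MN1 libraries, and ENO2 and SLC2A3 a smaller one.

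The isozyme shares of these families did not overlap between the groups, but with 2 libraries against 2 an exact permutation test cannot go below p = 0.333, so no share passes a test on its own. With the length of the longest transcript in place of all exons, the share of HK2 rose by 5.78 percentage points instead of 7.09 and that of PFKL changed by -5.17 instead of -5.96 points. The summed level per kilobase was 1.29 times the control level for the hexokinase pair and 1.24 times for the 3 phosphofructokinase genes.

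Aldolase, which splits fructose bisphosphate into triose phosphates, held the largest fall. ALDOC, the brain-enriched aldolase (chr17:28573115-28577264, minus strand), stood at 8.38 and 11 CPM in control libraries and at 4.22 and 4.39 CPM in anti-MN1 libraries. The control libraries differed from each other, yet both were above both anti-MN1 libraries. The log2 fold change of ALDOC was -1.17 ± 0.19 (2.25-fold lower, edgeR with Benjamini-Hochberg adjustment, adjusted p = 1.83e-08). ALDOA, normally the main aldolase of proliferating cells, was counted at only 29 to 46 reads per library (1.68 to 2.94 CPM) and was not called. Of its coding bases 93.8% lie under another protein-coding annotation on the same strand, whose own row held 20 to 47 reads, so these counts cannot be read as the level of ALDOA, and no share within the aldolase family is given.

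ENO2, the neuron-enriched enolase (chr12:6913745-6923698, plus strand), stood at 89.8 and 93.2 CPM in control libraries and at 58.3 and 53.0 CPM in anti-MN1 libraries. Every control library exceeded every anti-MN1 library by a wide margin. The log2 fold change of ENO2 was -0.72 ± 0.06 (1.64-fold lower, edgeR with Benjamini-Hochberg adjustment, adjusted p = 1.9e-23). ENO1, the ubiquitous enolase, moved the other way, from 3011 and 2952 CPM to 3487 and 3502 CPM, and was called higher. Per kilobase of exon, ENO2 was 3.55% and 3.75% of the enolase sum in control libraries and 2.02% and 1.83% in anti-MN1 libraries, while the sum itself was 1.15 times the control level. Among 5 neural markers SNAP25 and RBFOX3 were also called lower, and GFAP and STMN2 were at or near 0. SYP went the other way, from a mean of 5.61 CPM to 6.49 CPM, and was not called. The summed level of the 5 was 21.1 and 22.1 CPM in control libraries against 17.1 and 16.1 CPM in anti-MN1 libraries. The endothelial markers VWF and TEK and the epithelial marker CDH1 were called lower too, from low levels. EPCAM and KRT5 were lower but not called. PECAM1 (mean of 2.43 CPM in control and 3.05 CPM in anti-MN1 libraries) and KRT14 (1.94 and 2.31 CPM) went the other way and were not called. KDR, CDH5 and ESRP1, near 0 and not tested, also had higher means with anti-MN1 sdAb. The part of the neural markers in the fall of ALDOC and ENO2 was not tested.

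The windows upstream of the 2 enzymes that fell are printed for comparison with HK2: that of ALDOC holds both cores and that of ENO2 holds ACGTG but not GCGTG. ALDOC has 1 window (chr17:28576896-28577145, read along the minus strand) and ENO2 has 1 (chr12:6914330-6914579, plus strand), with the same marking in capitals.
ALDOC: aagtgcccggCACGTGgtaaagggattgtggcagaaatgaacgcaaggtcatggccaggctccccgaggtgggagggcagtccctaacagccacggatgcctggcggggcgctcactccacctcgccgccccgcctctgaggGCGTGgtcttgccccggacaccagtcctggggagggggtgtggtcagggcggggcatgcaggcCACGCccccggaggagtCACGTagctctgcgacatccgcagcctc
ENO2: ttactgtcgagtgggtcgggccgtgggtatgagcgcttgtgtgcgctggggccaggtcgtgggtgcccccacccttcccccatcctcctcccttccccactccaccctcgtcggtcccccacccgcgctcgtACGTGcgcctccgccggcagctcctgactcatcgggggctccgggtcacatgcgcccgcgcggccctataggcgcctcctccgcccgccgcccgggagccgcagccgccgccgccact
ACGTG or its complement stood upstream of enzymes that rose and of enzymes that fell.

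The middle and lower steps are carried by the abundant enzymes, and their changes were small. TPI1, which interconverts the triose phosphates, ranged from 783 to 821 CPM over the 4 libraries and was not called. GAPDH, which makes the first high-energy phosphate of the pathway and is a common reference gene, stood at 2673 and 2637 CPM in control libraries and at 2534 and 2580 CPM in anti-MN1 libraries. Its log2 fold change of -0.05 ± 0.03 was not called in this fit but was called lower with upper-quartile scaling, with total counts alone, with limma-voom and with the replicate number as a block, from -0.14 to -0.05. PGK1, which yields the first ATP, was called higher at 1061 and 1076 CPM against 932 and 937 CPM. PGAM1, the phosphoglycerate mutase, ranged from 488 to 510 CPM with overlapping groups, and like PFKL it was called lower only with upper-quartile scaling and with total counts alone.

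PKM, the pyruvate kinase of most tissues and tumours, rose by 0.13 ± 0.03 on the log2 scale, and with upper-quartile scaling or total counts alone it was not called. LDHA, which reduces pyruvate to lactate, went from 1665 and 1720 CPM to 1887 and 1929 CPM and was called higher. LDHB, the heart-type subunit, was counted at 34 to 45 reads per library. As with ALDOA, 93.5% of the coding bases of LDHB lie under another annotated gene on the same strand, so its level cannot be read here. Parts of PGAM1 (43.4% of windows of 50 bases), GAPDH (31.4%) and TPI1 (20.8%) are found in other genes, pseudogenes among them. Of the coding bases of GAPDH 21.5% face an antisense gene, AC006064.4, whose row held 0 reads in every library, so GAPDH may be undercounted. With ALDOA and LDHB left aside, the rows of 141 named pseudogenes of 13 members held at most 2.41% of the parent's counts. Only pseudogenes named after the parent were taken, so AC012085.1 and AC078819.1, which share windows with PGAM1, are not among them.

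Ranked by CPM per kilobase of exon in control libraries, the enzymes ran GAPDH (891), ENO1 (565), PKM (351), TPI1 (294), LDHA (273), PGAM1 (196) and PGK1 (170), followed after a wide gap by HK1 (36.1), GPI (34.8) and PFKP (31.4). ENO2 (21.4), PFKL (18.4), PFKM (16.7), HK2 (12) and ALDOC (3.31) came last among those that can be read. On this length only HK1 and GPI, of these neighbours, had control libraries that overlapped. With anti-MN1 sdAb PFKP moved from rank 10 to rank 8, HK2 from 14 to 11 and ENO2 from 11 to 14. The order depends on the length used: per kilobase of the longest transcript, a choice added after seeing the data, LDHA stood above TPI1, GPI above HK1 and PFKM (34.2) above ENO2 (32.4) and PFKL (27.3) in control libraries. The moves were then from 10 to 9 for PFKP, 14 to 13 for HK2 and 12 to 14 for ENO2.

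All 17 enzymes together took 1.43% and 1.40% of all counts of control libraries and 1.46% and 1.47% of those of anti-MN1 libraries. The few counts of ALDOA and LDHB are included, although they cannot be read as the levels of these genes. The groups did not overlap, and the difference was 0.048 percentage points (exact permutation test, 2-sided, p = 0.333, the smallest that 2 against 2 allows). Within that share ENO1 took 0.308% and 0.303% of all counts in control libraries against 0.339% and 0.340%, whereas GAPDH took 0.274% and 0.271% against 0.246% and 0.250%. The 12 enzymes outside the 5 most abundant changed the share by 0.0066 percentage points. With mitochondrially encoded genes left out of the total, the difference for all 17 enzymes was 0.035 percentage points.

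**Figure D3:**
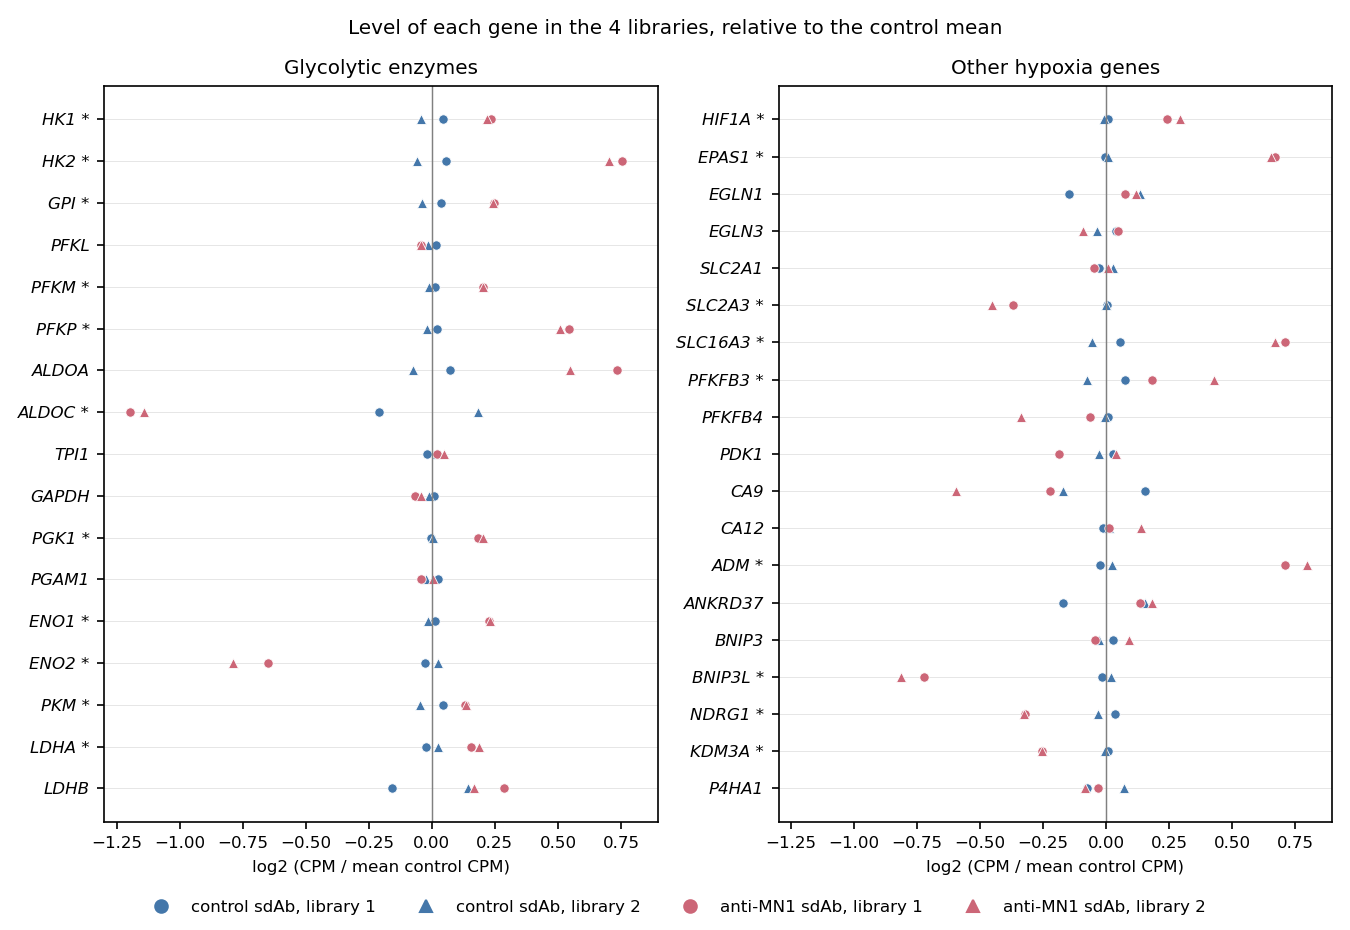
Log2 ratio of the CPM in each library to the mean control CPM (horizontal axis) for the 17 enzymes (left) and the 19 other members (right), in pathway order; blue marks are control libraries, red marks anti-MN1 libraries, circles library 1 and triangles library 2. An asterisk marks genes called by edgeR; HK2, PFKP, EPAS1, SLC16A3 and ADM stand to the right of their controls and ALDOC, ENO2, SLC2A3, BNIP3L and NDRG1 to the left.

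The HIF alpha subunit transcripts were both higher. HIF1A, the widely expressed alpha subunit (chr14:61695513-61748259, plus strand), stood at 525 and 520 CPM in control libraries and at 617 and 640 CPM in anti-MN1 libraries. Its groups were clearly separated, with a log2 fold change of 0.27 ± 0.03 (1.2-fold, edgeR with Benjamini-Hochberg adjustment, adjusted p = 1.93e-13). EPAS1, which encodes the other main HIF alpha subunit (chr2:46293667-46386703, plus strand), stood at 89.7 and 90.4 CPM in control libraries and at 143 and 142 CPM in anti-MN1 libraries. The libraries within each group were nearly equal, and the log2 fold change of EPAS1 was 0.66 ± 0.05 (1.58-fold, edgeR with Benjamini-Hochberg adjustment, adjusted p = 1.41e-28). Per kilobase of exon EPAS1 was 10.8% and 10.9% of the sum of the pair in control libraries and 14.1% and 13.5% with anti-MN1 sdAb. These values are transcript levels and say nothing of the amount of HIF protein.

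The oxygen sensors did not pass the test. EGLN1, the main HIF prolyl hydroxylase, stood at 55.4 and 67.2 CPM in control libraries and at 64.6 and 66.5 CPM in anti-MN1 libraries. Its control libraries differed from each other by more than the groups did, and without the second control library EGLN1 was called higher by 0.24 on the log2 scale. EGLN3, a hydroxylase that is itself a HIF target in many cells, ranged from 16.3 to 18.0 CPM with overlapping groups and a log2 fold change of -0.02 ± 0.12.

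The transcripts of the 3 transporters differed: 1 was called higher, 1 lower and 1 was not called. SLC16A3, the lactate exporter of glycolytic cells (chr17:82228397-82261129, plus strand), stood at 204 and 189 CPM in control libraries and at 322 and 312 CPM in anti-MN1 libraries. Each anti-MN1 library was far above both controls, and the log2 fold change of SLC16A3 was 0.69 ± 0.04 (1.61-fold, edgeR with Benjamini-Hochberg adjustment, adjusted p = 3.15e-42), the smallest adjusted p among the members. SLC2A3, the high-affinity glucose transporter of neurons (chr12:7919230-7936275, minus strand), fell from 84.0 and 83.8 CPM to 64.9 and 61.3 CPM. Both anti-MN1 libraries were below both controls, with a log2 fold change of -0.41 ± 0.06 (1.33-fold lower, edgeR with Benjamini-Hochberg adjustment, adjusted p = 8.09e-10). SLC2A1, the general glucose transporter and a standard HIF target, ranged from 173 to 182 CPM, its groups overlapped and it was not called, with a 95% interval of -0.10 to 0.06 for the log2 fold change, but it was called lower with upper-quartile scaling and with total counts alone. Of the windows of SLC2A3 21.5% are found in other genes, SLC2A14 first among them, and the row of SLC2A14 itself held 25 and 12 reads in control libraries and 2 and 1 in anti-MN1 libraries.

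Of the 3 regulators of flux 1 was called. PFKFB3, the kinase that makes the allosteric activator of phosphofructokinase, stood at 62.8 and 56.5 CPM in control libraries and at 67.7 and 80.2 CPM in anti-MN1 libraries. The anti-MN1 libraries were both higher but far from each other, and PFKFB3 was called with a log2 fold change of 0.31 ± 0.06. PFKFB4, its relative, stood at 25.8 and 25.6 CPM against 24.6 and 20.4 CPM and was not called, though it was called lower without the first anti-MN1 library, with upper-quartile scaling and with total counts alone. PDK1, which closes pyruvate dehydrogenase to pyruvate, ranged from 27.3 to 31.9 CPM with overlapping groups and was not called.

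Of the 9 hypoxia targets outside glycolysis 1 was called higher and 3 lower, where 23.7% of all tested genes were called higher and 21.6% lower. ADM, which encodes the vasodilator peptide adrenomedullin (chr11:10304680-10307397, plus strand), stood at 24.5 and 25.4 CPM in control libraries and at 40.7 and 43.3 CPM in anti-MN1 libraries. The groups were well separated, and the log2 fold change of ADM was 0.75 ± 0.09 (1.68-fold, edgeR with Benjamini-Hochberg adjustment, adjusted p = 3.6e-14), the largest rise among the members, with HK2 less than its standard error behind. The window upstream of its start (chr11:10304823-10305072, plus strand) is shown for comparison with the enzymes and held GCGTG but not ACGTG.
ADM: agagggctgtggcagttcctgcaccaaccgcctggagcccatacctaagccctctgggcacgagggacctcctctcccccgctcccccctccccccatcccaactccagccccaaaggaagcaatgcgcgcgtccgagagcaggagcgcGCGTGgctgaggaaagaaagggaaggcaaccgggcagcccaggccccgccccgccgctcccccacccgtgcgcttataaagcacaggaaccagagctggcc
The capitals again mark the core.

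BNIP3L, a mitophagy receptor that removes mitochondria in maturing red cells and in hypoxia (chr8:26382898-26505636, plus strand), stood at 129 and 132 CPM in control libraries and at 79.0 and 74.2 CPM in anti-MN1 libraries. It had the largest fall among the members outside glycolysis, with no overlap between groups and a log2 fold change of -0.77 ± 0.05 (1.70-fold lower, edgeR with Benjamini-Hochberg adjustment, adjusted p = 1.66e-32). Of the exonic bases of BNIP3L 8.96% face other genes, PNMA2 among them, whose row held 500 and 527 reads in control libraries and 282 and 299 in anti-MN1 libraries, and its part in the fall of BNIP3L was not tested. BNIP3, its relative with the same role, ranged from 69.1 to 76.1 CPM, overlapped between groups and was not called. NDRG1, a stress-induced gene that hypoxia raises in many cell lines (chr8:133237171-133302022, minus strand), stood at 331 and 315 CPM in control libraries and at 258 CPM in both anti-MN1 libraries. The groups did not overlap, and the log2 fold change of NDRG1 was -0.32 ± 0.04 (edgeR with Benjamini-Hochberg adjustment, adjusted p = 7.37e-15).

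KDM3A, a histone demethylase induced by HIF, fell from 74.1 and 73.5 CPM to 61.9 CPM in both anti-MN1 libraries and was called lower. CA9, a cell surface carbonic anhydrase and one of the most HIF-specific genes, was low in all libraries, at 5.65 and 4.52 CPM against 4.35 and 3.36 CPM, and was not called. Of its coding bases 39.1% face ARHGEF39 on the opposite strand, whose row held 529 and 539 reads in control libraries and 362 and 356 in anti-MN1 libraries. ANKRD37, a small ankyrin repeat protein at 2.17 to 2.78 CPM, faces UFSP2 over 42.6% of its coding bases, so both may be undercounted. CA12, another carbonic anhydrase, and P4HA1, a subunit of the collagen prolyl hydroxylase, were not called, at 49.8 to 55.2 CPM and 42.4 to 47.2 CPM.

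Upstream windows of RefSeq were found for 33 of the 36 members, 61 windows in all, and not for SLC2A3, BNIP3L and NDRG1. ACGTG or GCGTG, on either strand, stood in 37 of the 61 windows (60.7%), against 43.2% of 35116 windows of the same length over all genes. ACGTG alone stood in 36.1% of the members' windows and 18.5% of all windows, and GCGTG in 34.4% and 32.2%. The members include genes listed because they are HIF targets, and the windows over all genes include untested genes. A higher share of a HIF core is therefore no result about these libraries. The members had 61 windows for 33 genes, against 35116 for 27305 over all genes, and more windows per gene raise a count by gene. By gene, either core stood upstream of 12945 of all 27305 genes, and of 13 of 14 members called higher, 3 of 3 called lower and 12 of 16 not called. By window it was 19 of 37, 4 of 4 and 14 of 20, where HK1 and PFKM alone gave 7 windows each, some of them overlapping and most without a core. By role it was 14 of 17 enzymes and 14 of 16 other members, or 51.4% of the enzymes' windows and 75% of the windows of the other members. No match means only that these letters are not in the window.

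The wider pathway was read from 4 further lists of genes. Over all tested genes 23.7% were called higher and 21.6% lower, so calls in both directions are not particular to these lists. Not every list matched these shares, and the differences from them were not tested. Of 29 tested HIF target genes outside the 36, 11 were called higher and 8 lower, with a median log2 fold change of -0.01. TFRC, the transferrin receptor, rose from 439 and 433 CPM to 834 and 835 CPM (1.91-fold). PLOD2, a collagen lysyl hydroxylase, rose 1.37-fold, and ANGPTL4, an inhibitor of lipoprotein lipase, rose 3.04-fold from a low level of 17 to 23 control reads. BHLHE41, a clock repressor, fell from 22.3 and 19.6 CPM to 3.90 and 3.94 CPM (5.33-fold lower), and STC1, a secreted glycoprotein hormone, was 2.64-fold lower. VEGFA, the angiogenic growth factor most often used as a HIF readout, was not called. It stood at 86.5 and 85.3 CPM in control libraries and at 92.4 and 90.0 CPM in anti-MN1 libraries.

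Of 12 tested partners and degradation factors of HIF 1 was called higher (RBX1, 1.13-fold, with overlapping libraries) and 1 lower (ARNT2, a beta subunit, 1.45-fold). Of 8 tested glycolytic isozymes outside the 36, 4 were called higher and 0 lower. They were HKDC1, a hexokinase-like enzyme (1.56-fold), BPGM, the bisphosphoglycerate mutase (1.46-fold), ADPGK, the ADP-dependent glucokinase (1.26-fold), and PFKFB2 (1.18-fold).

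Around pyruvate, 6 of 22 tested genes of pyruvate entry, sugar transport and gluconeogenesis were called higher and 5 lower. These counts lie near the shares of all tested genes, 23.7% higher and 21.6% lower. SLC16A7, a pyruvate and lactate transporter, rose 1.60-fold, and PDHA1, a subunit of pyruvate dehydrogenase, 1.34-fold. PCK2, the mitochondrial enzyme that makes phosphoenolpyruvate, was 1.87-fold lower, and the sugar transporters SLC2A12 and SLC2A10 were 7.27-fold and 2.75-fold lower. SLC2A12 stood at 8.87 and 8.97 CPM in control libraries and at 1.02 and 1.42 CPM in anti-MN1 libraries, so its fall started from a low level. Exons of SLC2A12 (38.9% of bases) and PDHA1 (21.3%) face another gene on the opposite strand, so both may be undercounted.

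**Figure D4:**
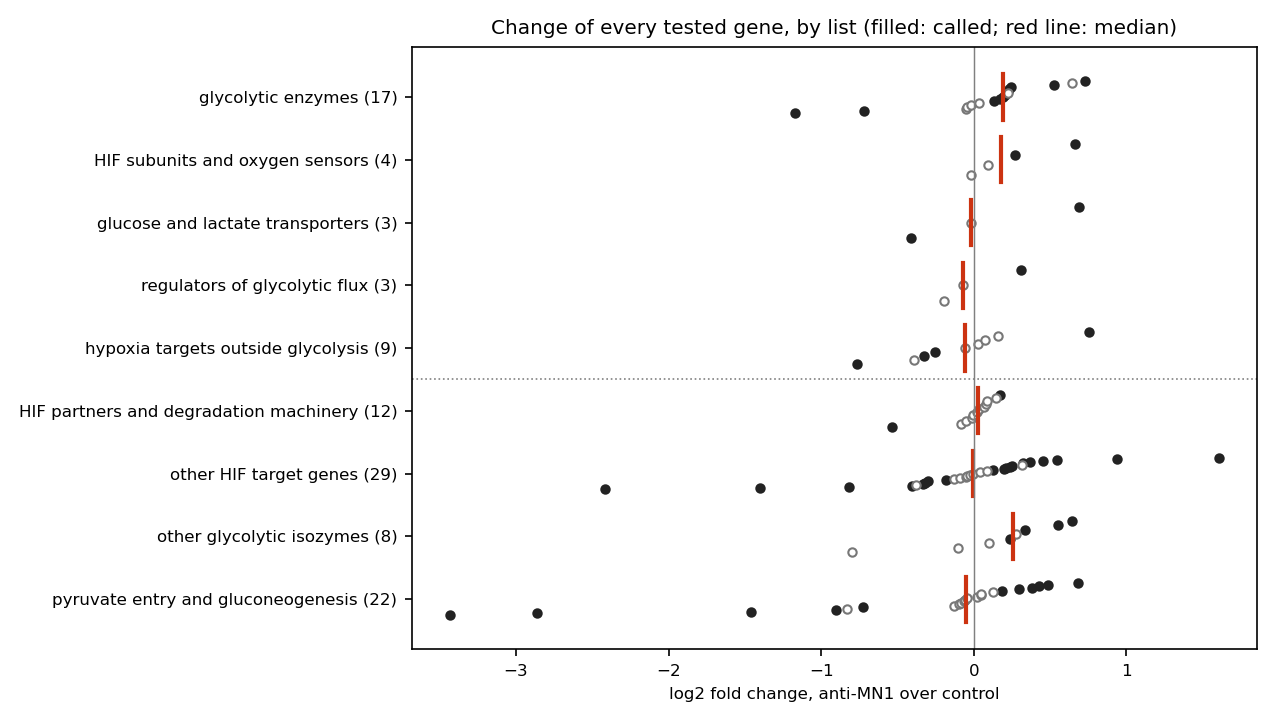
Log2 fold change (anti-MN1 over control, horizontal axis) of every tested gene in the 5 role groups of the members (above the dotted line) and in the 4 further lists (below it), with the number tested in brackets. Filled circles were called and red lines are medians; the enzymes have a median of 0.19, and the other HIF target genes lie on both sides of 0 with a median of -0.01.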

How the data were processed

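The deposited values are raw gene counts (whole numbers of differing totals, not normalized by the authors). Per the submitters' processing notes, the tools were Bowtie2 and HTSeq and the build was hg38 (GRCh38). Versions, strand setting and annotation release are not stated in these notes. The counts were tested in R 4.3.3 with edgeR 4.0.16 (filterByExpr with a minimum count of 10, TMM, robust quasi-likelihood fit, no covariate), Benjamini-Hochberg adjusted over 17524 genes at 0.05. The fit drew on a median of 209 prior degrees of freedom, so p-values rest mostly on a spread shared over genes. The script was tested on simulated data. Symbols came from a table of current gene names, and coordinates, exon lengths and overlaps from GENCODE 29. Windows of 250 upstream bases came from RefSeq (GRCh38.p14). The members and lists were chosen with earlier results of these data known. Values in every library are given for HIF1A, EPAS1 and members called and changed at least 1.25-fold (0.32 on the log2 scale); from each further list up to 4 called genes with the smallest p, and any called and changed at least 2-fold, are named, besides VEGFA, which was chosen after its values were seen. A gene that this rule names is not reported here. Alternatives were other scalings and filters, DESeq2 1.42.0, limma-voom (limma 3.58.1), a test against 1.2-fold, a replicate block and leaving out each library.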

Additional observations from a re-analysis of the deposited data

How the results depend on the processing

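Of the 20 called members, HK2, PFKP, ALDOC, ENO2, EPAS1, SLC2A3, SLC16A3, ADM and BNIP3L (9 genes) stayed called in the same direction under all alternatives. Testing against 1.2-fold left 9 members called, 5 of them higher. Of the enzymes 2 were higher and 2 lower (ALDOC and ENO2), and of the other members 3 were higher and 2 lower. HK1, GPI, PFKM, PGK1, ENO1, LDHA, HIF1A, PFKFB3, NDRG1 and KDM3A lost the call in that test alone. It asks for a change beyond 1.2-fold and not for any change. With upper-quartile scaling or total counts alone 11 members were lower, 5 of them enzymes, with PFKL, GAPDH, PGAM1, SLC2A1 and PFKFB4 added and PKM no longer called higher, and the median of all genes was -0.0891 and -0.0833. The median log2 fold change of the enzymes was then 0.108 and 0.113, and that of the other members -0.105 and -0.0993. Leaving out 1 library gave medians of the other members from -0.0328 to 0.0471, the latter without the first anti-MN1 library. DESeq2 called 20 members and limma-voom 21. With the replicate number as a block 21 members were called, GAPDH being added, and the block changed no other call. The correlation of same-numbered libraries' deviations was -0.00308, so the numbers do not show a pairing.

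Members that were not called and changed sign were TPI1 (-0.0499 under upper quartiles, -0.0443 under total counts), CA12 (-0.0100, -0.00451) and BNIP3 (-0.0603, -0.0547). Leaving out 1 library at a time gave log2 fold changes of -0.0399 to 0.0135 for PGAM1, -0.0328 to 0.243 for EGLN1, -0.0839 to 0.0548 for EGLN3, -0.042 to 0.0154 for SLC2A1, -0.179 to 0.0471 for PDK1, -0.037 to 0.0997 for BNIP3 and -0.127 to 0.0192 for P4HA1. The cause was not tested. The enzymes outside the 5 most abundant changed the share of counts by 0.00662 percentage points. Without ALDOA, LDHB, CA9 and ANKRD37, a choice made after seeing the data, the enzymes' median was 0.17. Depth limits most the members under 10 CPM, such as CA9 and ANKRD37.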
